A study of Mus musculus with 2 samples.

Results

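Regulatory T cells (Treg cells) that carried transcripts of Il1rl1, which encodes ST2 (IL1RL1), the receptor for IL-33, were taken from a single-cell library of T cells sorted out of mouse melanomas. The cells were chosen by their own counts of unique molecular identifiers (UMIs, each standing for 1 captured RNA molecule). A barcode was kept if it had 200 to 2500 detected mouse genes and less than 5% of its UMIs on mitochondrial genes, and it was called a Treg cell if it had at least 1 UMI of Foxp3 and none of Cd8a or Cd8b1. Of 14035 barcodes, 9078 were kept and 2609 of these were Treg cells. At least 1 UMI of Il1rl1 was present in 504 Treg cells, named Il1rl1+ Treg cells here, whereas the other 2105 had none and were named Il1rl1- Treg cells. Because Foxp3, Cd8a, Cd8b1 and Il1rl1 chose the cells, the values of these genes are given only as a description.

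IL-33 is an alarmin of the IL-1 family that is released by damaged or stressed tissue cells. Its receptor IL1RL1 pairs with the accessory protein IL1RAP and signals through MYD88 and the IRAK kinases to NF-kB. A subset of Treg cells in non-lymphoid tissues carries IL1RL1 together with the transcription factor GATA3. Such cells are known for making amphiregulin (gene Areg), a ligand of the EGF receptor that acts in tissue repair.

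The cells came from B16 melanomas and from tumors of a B16 line engineered to overexpress secreted IL-33 (B16–IL-33), both grown intradermally in mice of the C57BL/6 background and given no other treatment. T cells were sorted on TCR-β on day 9, marked with 4 hashtag antibodies (2 named for each kind of tumor), pooled and loaded together, so each kind of tumor is represented within 1 gene expression library. The ages and numbers of the mice and whether the 2 tags of a tumor stand for different mice are not given in the sources used here. With 1 library there were no replicates, so no p-value is given, and every 95% interval covers counting error only.

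The library held 43420305 UMIs on 31053 mouse genes. The Il1rl1+ Treg cells had a median of 2850 UMIs and 1254 detected genes a cell. For comparisons of other genes, each Il1rl1+ cell was paired with the Il1rl1- Treg cell nearest to it in total UMIs, which gave 504 matched cells with a median of 2849 UMIs. The summed UMIs were 1637841 and 1637374, and the median mitochondrial share was 1.95% in Il1rl1+ cells and 1.70% in matched cells. Markers that define other cell types were checked in both groups. No UMI of the mast cell and basophil genes Cpa3, Mcpt8, Gata2, Ms4a2 and Fcer1a, or of the B cell gene Ms4a1, was found in either group. Other B cell genes were present: Cd79b had 44 UMIs in 39 Il1rl1+ cells and 26 in 18 matched cells (ratio 1.69, 1.02 to 2.86), Ighm had 895 and 658, and Cd79a had 1 and 8. Myeloid transcripts were present: at least 2 of 7 myeloid markers were found in 16 Il1rl1+ cells and in 19 matched cells. Their summed level was lower in the Il1rl1+ cells and is given beside the chemokine genes it goes with. Cells with at least 2 productive beta chains, which can be doublets, numbered 34 and 29.

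Genes that had not been used in the choice also marked the cells as Treg cells. Ctla4, the inhibitory receptor of Treg cells, was detected in 81.7% of the Il1rl1+ cells, Ikzf2 (Helios) in 86.1%, and Tnfrsf18 (GITR) in 87.7%. In the matched Il1rl1- cells these shares were 75.0%, 80.8% and 83.7%. The CD3 genes of the T cell receptor complex were detected in 81.2% (Cd3g) to 86.1% (Cd3d) of the Il1rl1+ cells. Both groups thus carried the markers of Treg cells, at slightly higher shares in Il1rl1+ cells. Foxp3 itself had 1253 UMIs in the Il1rl1+ cells and 1168 in the matched cells.

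Il1rl1 (ENSMUSG00000026069) lies on the plus strand of mouse chromosome 1 at chr1:40429570-40465415 (mm10). It is followed closely by Il18r1 (chr1:40465552-40500854) and Il18rap (chr1:40515362-40551705), which encode the chains of the IL-18 receptor. RefSeq lists 2 starts of Il1rl1, each with a window in its promoter table (GRCm38.p6). The 250 bases before each start are shown because Gata3 was among the genes with more UMIs in Il1rl1+ cells, and capitals mark the letters AGATAA, a core of the GATA motif, on either strand.
Il1rl1 start 1, chr1:40429320-40429569: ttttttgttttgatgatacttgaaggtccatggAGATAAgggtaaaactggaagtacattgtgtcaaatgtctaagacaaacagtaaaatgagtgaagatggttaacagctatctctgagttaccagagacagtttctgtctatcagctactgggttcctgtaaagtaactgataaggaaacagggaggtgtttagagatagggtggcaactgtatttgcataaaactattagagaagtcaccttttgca
Il1rl1 start 2, chr1:40439379-40439628: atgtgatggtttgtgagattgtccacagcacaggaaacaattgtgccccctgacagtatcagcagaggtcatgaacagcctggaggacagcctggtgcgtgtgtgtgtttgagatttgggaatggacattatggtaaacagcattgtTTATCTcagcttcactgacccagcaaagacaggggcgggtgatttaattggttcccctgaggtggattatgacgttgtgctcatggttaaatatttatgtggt
Each of the windows held 1 match, on the plus strand before the first start and on the minus strand before the second. The same letters occurred in 9.99% of 32851 promoter windows of this length in the table. Neither window held the letters TGANTCA (AP-1) or TTCNNNGAA (STAT5) on either strand. A match describes the letters of the window only, and use of the starts was not measured here.

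Il1rl1 was sparsely counted even in the cells that it selected. Of the 504 Il1rl1+ Treg cells, 256 (50.8%) had exactly 1 UMI, which is the value just inside the threshold, while 127 had 2, 59 had 3, 38 had 4 and 24 had 5 or more. The highest cell had 14. The share of Treg cells with Il1rl1 was 19.3% (exact 95% interval 17.8 to 20.9). It was 17.0% in the depth quartile of Treg cells with the fewest UMIs and 20.5% in that with the most, so it depended little on depth across this range.

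Free RNA can place single UMIs in cells that do not express a gene, so the share was set beside that in other cells of the library. After each cell was thinned to 1500 UMIs, Il1rl1 was found in 13.5% (12.1 to 15.0) of 2155 Treg cells. It was found in 4.10% (3.14 to 5.26) of 1439 CD4+ conventional T cells, which lack Foxp3 and CD8 UMIs. CD8+ T cells, where the gene should be low, had 1.39% (0.760 to 2.31). In 179 cells with myeloid markers and no CD3 UMI it was 0.559% (0.0141 to 3.07). The unthinned shares were 19.3%, 6.02%, 2.90% and 2.26%, at median depths of 2780, 2534, 3297 and 2633 UMIs. The share in Treg cells was above that in the other classes beyond counting error, while a single UMI in any 1 cell may still be free RNA.

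**Figure D1:**
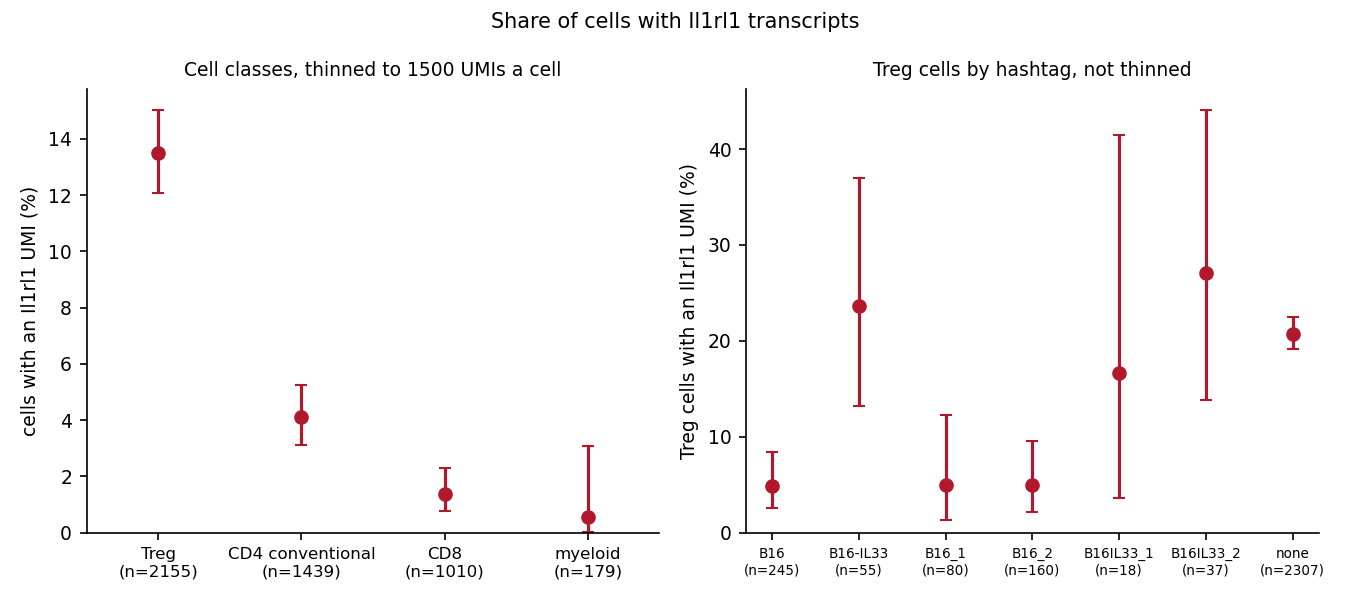
Share of cells with at least 1 Il1rl1 UMI, as a percentage with its exact 95% binomial interval (points and bars). Left, 4 cell classes of the library thinned to 1500 UMIs a cell, with the highest share in Treg cells at 13.5%. Right, Treg cells by the hashtag found on them, not thinned, with 4.90% for B16 tags, 23.6% for B16–IL-33 tags and 20.8% without a tag; the 4 single tags run from 5.0% to 27.0%.

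Across all genes, Il1rl1+ Treg cells were compared with the matched cells as the ratio of their CPM (UMIs of a gene per 1000000 mouse UMIs), with Il1rl1 left out of the totals. Among 3986 genes with at least 100 UMIs over both groups, 135 (3.39%) were at least 1.5-fold higher in Il1rl1+ cells and 92 (2.31%) were at least 1.5-fold lower. The median log2 ratio over these genes was 0.01. Gene lists below took genes with at least 30 UMIs. Of all 7349 such genes, 7.06% were at least 1.5-fold higher and 5.48% lower, which are the shares to set beside each list. The highest ratios included those of Dgat2, the chemokine receptors Ccr3 and Ccr6, the TNF receptor family members Tnfrsf8 and Tnfrsf25, Il1rn and Areg. The lowest included those of Ccl2, Ccl3, Ccl4, Ccl5 and Ccl12, of Spp1 and Lyz2, and of Nkg7.

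Areg was the most abundant of the 12 genes with the highest ratios. It had 2544 UMIs in the Il1rl1+ cells and 905 in the matched cells, or 1554 and 553 CPM, a ratio of 2.81 (2.61 to 3.04). Areg transcripts were detected in 218 (43.3%) of the Il1rl1+ cells and in 132 (26.2%) of the matched cells. The gene was very unevenly spread. No Areg UMI was found in 286 (56.7%) of the Il1rl1+ cells, the highest had 83, and the 10% of cells with the most Areg held 70.8% of the group's Areg UMIs. In matched cells they held 85.4%. Without the Il1rl1+ cell with 83 Areg UMIs, the highest cell of either group, the ratio was 2.73. However, the interval treats UMIs as independent and is too narrow for a gene with such bursts. Conversely, most Treg cells with Areg lacked an Il1rl1 UMI: of 786 Treg cells with at least 1 Areg UMI, 218 (27.7%) had Il1rl1, and of 326 with at least 5, 104 (31.9%) did. Genes of amphiregulin release did not share the ratio. Adam17, the protease that sheds amphiregulin, had 80 and 93 UMIs (ratio 0.860, 0.630 to 1.17). Rhbdf2, which supports its maturation, had only 21 and 16. Egfr, the receptor, had no UMI in either group.

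Il1rn, which encodes the IL-1 receptor antagonist, had 366 UMIs in the Il1rl1+ cells and 129 in the matched cells, a ratio of 2.84 (2.32 to 3.50). It was detected in 100 and 49 cells. The adaptor gene Myd88, on which IL1RL1 signaling depends, had 63 and 39 UMIs (1.62, 1.07 to 2.47). Other parts of the receptor pathway had ratios nearer to 1 or few UMIs. Il1rap had 4 and 8 UMIs, Irak1 76 and 62, Irak2 77 and 65, Irak4 28 and 28, and Traf6 35 and 34. Of 13 measured genes of IL-33 receptor and IL-1 family signaling with at least 30 UMIs, 5 were at least 1.5-fold higher and none lower, where 7.06% of all 7349 genes at this depth were higher and 5.48% lower. The 5 were Il1rn, Il18rap, Map3k7, Myd88 and Tollip, and the intervals of Map3k7 (20 and 12 UMIs) and Tollip (31 and 20) held 1. The IL-18 receptor genes went in opposite directions. Il18rap, the accessory chain, had a ratio of 2.61 (1.71 to 4.09) from 81 and 31 UMIs, whereas Il18r1, the ligand-binding chain and the nearer neighbour of Il1rl1, had 77 and 108 UMIs (0.713, 0.525 to 0.964). Sigirr, an inhibitory receptor of the family, had 81 and 100 UMIs.

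Dgat2, the enzyme that makes triglycerides for lipid droplets, had the highest ratio of all ranked genes. It had 196 UMIs in Il1rl1+ cells and 25 in matched cells, or 120 and 15.3 CPM, a ratio of 7.84 (5.16 to 12.4). It was found in 112 (22.2%) and 17 (3.37%) of the cells, and no cell had more than 8 UMIs. Dgat1, which catalyses the same last step of triglyceride synthesis, had 678 and 441 UMIs (1.54, 1.36 to 1.74). The rest of the lipid list did not share these ratios. Of 14 measured lipid genes only Dgat2 and Dgat1 (14.3%) were at least 1.5-fold higher. Another 2 (14.3%) were lower, Hmgcs1 at 0.641 and Alox5ap at 0.372. Over all genes 7.06% were higher and 5.48% lower. The median log2 ratio of the list was -0.15.

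Among chemokine receptors, which steer cells within tissue, Ccr3, Ccr6, Ccr4 and Gpr183 (a receptor for oxysterols) were at least 1.5-fold higher. They made up 28.6% of the 14 measured receptors, beside 7.06% of all genes. Ccr3 had 130 UMIs in Il1rl1+ cells and 38 in matched cells, a ratio of 3.42 (2.37 to 5.05). Ccr6 had 85 and 28 (3.04, 1.96 to 4.84), and Ccr4 had 82 and 35 (2.34, 1.56 to 3.59). Ccr3, Ccr6 and Ccr4 were low-level transcripts, each found in at most 17.5% of the Il1rl1+ cells. Receptors that were more abundant differed less: Ccr2 had a ratio of 1.20 (1.11 to 1.31) and Ccr8 of 1.17 (0.990 to 1.37). Cxcr3, the receptor for interferon-induced chemokines, was the 1 gene of the 14 measured receptors that was at least 1.5-fold lower, at 146 and 271 UMIs (0.539, 0.438 to 0.661).

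Il2ra, the high-affinity chain of the IL-2 receptor (CD25), had 1179 UMIs in Il1rl1+ cells and 600 in matched cells, a ratio of 1.97 (1.78 to 2.17), and was found in 68.3% and 49.4% of the cells. It was the 1 gene past 1.5-fold among 9 measured Treg identity genes (11.1%, beside 7.06% of all genes). The other chains of that receptor did not share the ratio. Il2rb had 664 and 799 UMIs and Il2rg had 983 and 988. Of the TNF receptor family, Tnfrsf8 (CD30) had 78 and 28 UMIs (2.79, 1.79 to 4.46) and Tnfrsf25 (DR3) had 123 and 47 (2.62, 1.86 to 3.75). Tnfrsf9 (4-1BB), far more abundant, had 2525 and 1797 (1.41, 1.32 to 1.49). Cd27 of the same family was lower, at 379 and 593 UMIs (0.639, 0.561 to 0.729). Thus members of 1 receptor family lay on both sides. The highest ratios also included Pdzk1ip1, which encodes a small membrane protein (143 and 30 UMIs, ratio 4.77), Pou2f2, the transcription factor OCT2 (308 and 123, 2.5), and Ppme1, a phosphatase methylesterase (162 and 67, 2.42).

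**Figure D2:**
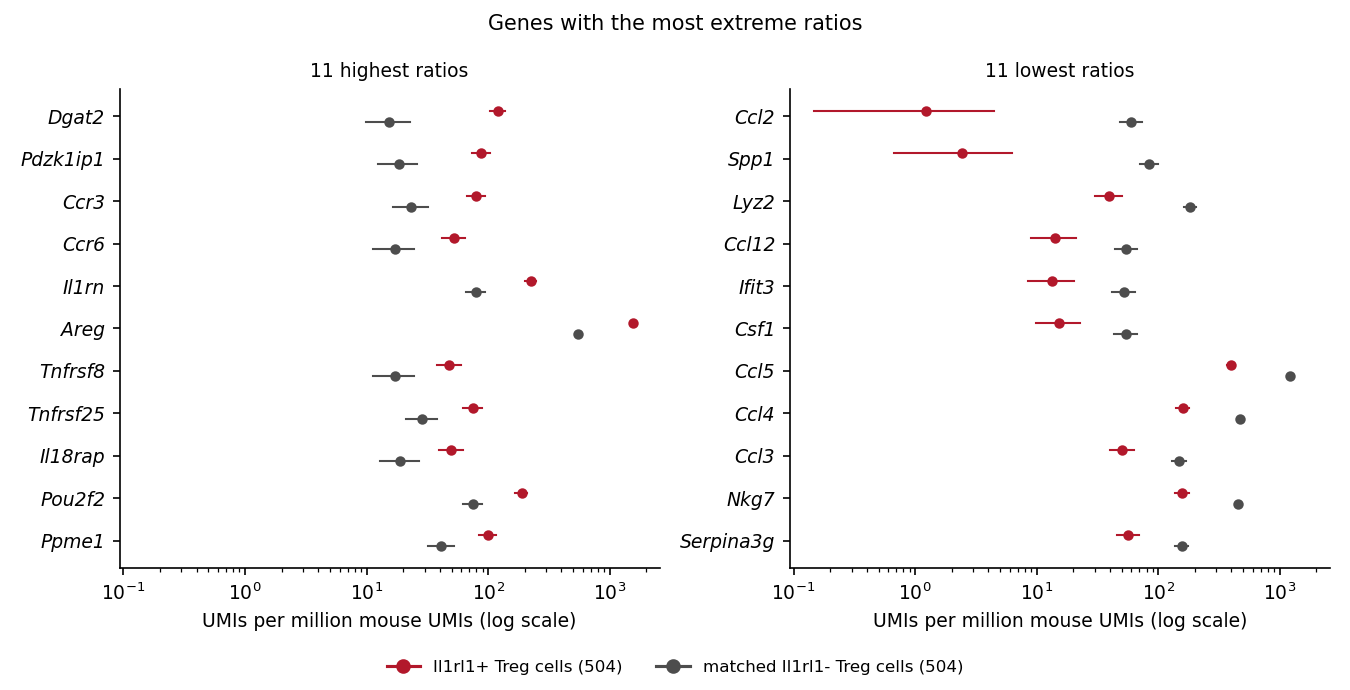
CPM (log axis) for the 11 genes with the highest and the 11 with the lowest ratios among 3986 ranked genes, in 504 Il1rl1+ Treg cells and 504 depth-matched Il1rl1- Treg cells; points are levels and bars exact 95% Poisson intervals. Dgat2 at 120 against 15.3 has the widest gap on the left, and Ccl2 and Spp1, with 2 and 4 UMIs in Il1rl1+ cells, lie farthest left on the right.

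Gata3, the factor that drives type 2 genes and marks tissue Treg cells, had the highest ratio in the list of transcription factors, which does not hold Pou2f2. It had 386 UMIs in Il1rl1+ cells and 180 in matched cells, a ratio of 2.15 (1.79 to 2.57), and was found in 46.8% and 25.4% of the cells. Batf, needed for tissue Treg cells to form, had 620 and 360 UMIs (1.72, 1.51 to 1.97). Rora had 512 and 326 (1.57, 1.36 to 1.81) and Stat5a, which acts below the IL-2 receptor, had 155 and 101 (1.54, 1.19 to 1.99). These 4 (11.4%, beside 7.06% of all genes) were the genes at least 1.5-fold higher among the 35 measured genes of that list. Runx2 was the 1 lower gene (109 and 175 UMIs, 0.623). In a list of 25 measured genes of ST2+ or tissue Treg cells, drawn up with this study in view, 8 (32.0%) were higher and 1, Il10, lower. The 8 were Dgat2, Areg, Gata3, Ctsh, Sdc4, Batf, Rora and Tff1. The ratio of Tff1 (1.56) was 0.954 without the 1 cell with the most Tff1 UMIs. Klf2, a factor of resting and recirculating T cells, had 1652 and 929 UMIs (1.78, 1.64 to 1.93) and Satb1 had 648 and 416 (1.56, 1.38 to 1.77). However, Ccr7, which serves entry into lymph nodes, had a ratio near 1 (71 and 73 UMIs), and the naive T cell factors Tcf7 (60 and 90) and Lef1 (77 and 110) were not higher.

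The genes of NF-kB, the pathway downstream of the receptor, were mostly above 1 without passing the fold. Of 23 measured genes, 2 were at least 1.5-fold higher, Birc3 (1.61, 1.23 to 2.13) and Nfkb1 (1.56, 1.29 to 1.88), and none was lower. The higher share, 8.70%, was near the 7.06% of all genes, of which 5.48% were lower. The median log2 ratio of the list was 0.31 beside 0.01 for all genes. Nfkbia, the inhibitor that NF-kB itself induces, had 3022 UMIs in Il1rl1+ cells and 2179 in matched cells (1.39, 1.31 to 1.47). Bcl3 had 337 and 225 (1.5, 1.26 to 1.78) and lay just below the fold, while Nfkb2 had 158 and 153 (1.03, 0.822 to 1.30). Of other genes the study linked to these cells, Sdc4, a syndecan, had 432 and 247 UMIs (1.75, 1.49 to 2.05). Klrg1 had 540 and 468 UMIs (1.15, 1.02 to 1.31). Maf had a ratio of 0.948 with an interval that held 1 (0.858 to 1.05).

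Several chemokine genes and Nkg7 were among the genes with fewer UMIs in Il1rl1+ Treg cells. Ccl5, a chemokine of effector T cells, had 653 UMIs in Il1rl1+ cells and 1976 in matched cells, a ratio of 0.331 (0.302 to 0.361). It was found in 45.2% and 57.7% of the cells. Nkg7, a protein of cytotoxic granules, had 257 and 747 UMIs (0.344, 0.298 to 0.397) and was found in 19.2% and 40.7%. Ccl4 had 259 and 776 (0.334) and Ccl3 83 and 242 (0.343). Serpina3g, an inhibitor of cathepsins in activated T cells, had 93 and 256 (0.363, 0.283 to 0.462). These 5 genes kept ratios of 0.334 to 0.379 when the 1 cell with the most UMIs of the gene was left out. Other genes of cytotoxic granules did not share the ratio of Nkg7. Gzmb (granzyme B) had 2254 and 2207 UMIs, a ratio of 1.02 (0.963 to 1.08), and Prf1 (perforin) had 28 and 41 (0.683, 0.407 to 1.13).

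Inhibitory receptors and suppressive cytokines lay on both sides of 1. Lag3, an inhibitory receptor, had 287 UMIs in Il1rl1+ cells and 565 in matched cells (0.508, 0.439 to 0.587). Tigit had 753 and 1049 (0.718, 0.653 to 0.789), Il10 had 101 and 175 (0.577, 0.447 to 0.742), and Ctla4 had 2213 and 1881 (1.18, 1.11 to 1.25). Of 15 measured suppression genes 1 (6.67%) was at least 1.5-fold higher (Il2ra) and 1 (6.67%) lower (Il10). These shares were near those over all genes, 7.06% and 5.48%. The median log2 ratio of the list was 0.03. Of 12 measured inhibitory receptors, Lag3 was the lower gene, and Cd200 (33 and 16 UMIs) and Btla (28 and 16, with an interval that held 1) were the higher ones. Csf1 was low in both groups (25 and 88 UMIs, 0.284). Among interferon-induced genes Ifit3 (22 and 85 UMIs, 0.259) and Ifit2 (11 and 37, 0.297) had the lowest ratios. Altogether 4 of 26 measured interferon genes (15.4%) were at least 1.5-fold lower and none higher, beside 5.48% and 7.06% of all genes. Igtp, an interferon-induced GTPase, stood apart at 743 and 532 UMIs (1.40, 1.25 to 1.56).

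Some of the lowest ratios came from a handful of cells. Ccl2 had 2 UMIs in Il1rl1+ cells and 98 in matched cells, of which 35 lay in 1 cell and all in 12. Spp1 had 4 and 138, of which 101 lay in 1 matched cell. Lyz2, the lysozyme of macrophages, had 64 and 300 UMIs in 16 and 18 cells, and Ccl12 had 23 and 89 in 5 and 9. Ccl6 had 118 and 304 UMIs (0.388), with 175 of the latter in 1 matched cell. Its ratio was 0.910 without that cell alone, while the highest Il1rl1+ cell, with 39 UMIs, was kept. Over the 7 measured genes of the myeloid list, 6 were at least 1.5-fold lower and the list of 13 genes summed to 399 UMIs in Il1rl1+ cells and 893 in matched cells. When the 116 Il1rl1+ cells with a UMI of a myeloid, dendritic, mast, B cell or melanoma marker were left out together with such cells of the comparison, Ccl6 had a ratio of 1.83 and Ccl12 of 0.999. Under the same restriction the ratios of Ccl5 (0.323), Nkg7 (0.332), Areg (2.63) and Dgat2 (6.71) stayed near their values. Csf1 was spread more widely, over 19 Il1rl1+ and 58 matched cells with at most 5 UMIs in any. Its ratio ran from 0.207 to 0.301 over the alternatives run on all Treg cells. The part of myeloid transcripts in the low ratios of Ccl2, Spp1 and Csf1 was not tested.

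Type 2 cytokines were rare. Il13 had 50 UMIs in 5 Il1rl1+ cells, 24 of them in 1 cell, and none in the matched cells, which makes it at least 16.7-fold higher against a floor of 3 UMIs over the matched group. Ccl1 had 30 UMIs in 3 Il1rl1+ cells, 28 of them in 1, and 1 UMI in the matched cells. Osm, which encodes oncostatin M, was more widely spread, with 45 UMIs in 37 cells and 18 in 12 (2.5, 1.42 to 4.59). Among 17 measured cytokine genes 3 (17.6%) were at least 1.5-fold higher (these 3) and 7 (41.2%) lower, beside 7.06% and 5.48% of all genes. Kit, the 1 mast cell gene with UMIs, had 22 in 20 Il1rl1+ cells and 4 in 4 matched cells (5.5, 1.87 to 22.0), without the other mast cell genes.

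**Figure D3:**
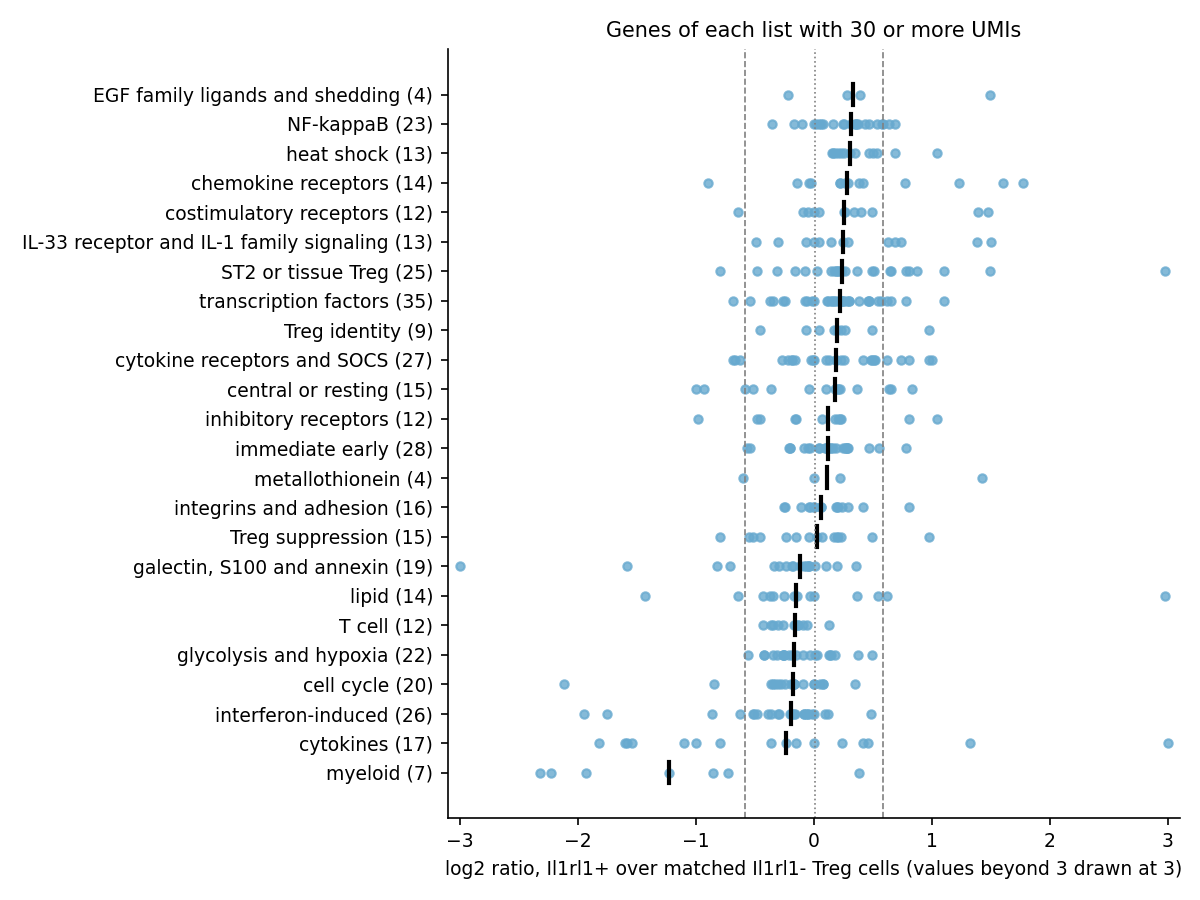
Log2 ratio (Il1rl1+ over matched Il1rl1- Treg cells) of every gene with at least 30 UMIs in each list of 4 or more such genes, with the number of genes in brackets; dots are genes, black bars medians, the dotted line the median of all genes and dashed lines 1.5-fold. Il13, without a UMI in matched cells, cannot be drawn. The myeloid list has the lowest median, at -1.23, and most other medians lie between -0.23 and 0.34.

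Several other lists had medians of less than 1.5-fold in either direction, while some of their genes passed it. All 13 heat shock genes had ratios above 1 (median log2 ratio 0.30). Of these, 2 (15.4%, beside 7.06% of all genes), Hspa1b and Dnajb4, passed 1.5-fold. Cell cycle genes had a median of -0.17, with Mki67, the proliferation marker, at 91 and 86 UMIs. Of 20 measured, 2 (10.0%, beside 5.48% of all genes) were at least 1.5-fold lower and none higher. The 2 were Ccnb2 (9 and 39 UMIs, 0.231) and Birc5 (34 and 61, 0.558). Glycolysis and hypoxia genes had a median of -0.16 and none passed 1.5-fold in either direction. The 12 T cell genes, which include the T cell receptor complex, summed to 9525 UMIs in Il1rl1+ cells and 10990 in matched cells (ratio 0.867), and Lck, the kinase of T cell receptor signaling, was the lowest at 0.741 (0.662 to 0.829). Of 19 measured galectin, S100 and annexin genes 4 (21.1%, beside 5.48% of all genes) were at least 1.5-fold lower, S100a8, Anxa1, Lgals3 and Anxa2. S100a8 (1 and 39 UMIs) and Anxa1 (9 and 27) were rare. Anxa2 had 488 and 800 UMIs (0.610, 0.544 to 0.684), and Lgals3 had 349 and 616 (0.567), of which 140 lay in 1 matched cell. Without the 1 cell with the most Lgals3 UMIs its ratio was 0.729. Mt2, a metallothionein, was at 70 and 26 UMIs (2.69, 1.69 to 4.40), while Mt1 was at 454 and 388. Among 27 measured cytokine receptor and SOCS genes 5 (18.5%) were at least 1.5-fold higher (Il2ra, Il9r, Il6ra, Ifngr2 and Socs3). Another 3 (11.1%) were lower (Il12rb2, Il27ra and Socs2), beside 7.06% higher and 5.48% lower of all genes. Of the higher and lower genes of this list, Il6ra had a ratio of 1.75 (1.21 to 2.55) and Socs3 of 1.54 (1.25 to 1.91). Il27ra had a ratio of 0.629 (0.476 to 0.827), while the intervals of Il9r, Ifngr2 and Il12rb2 held 1.

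Within the Il1rl1+ Treg cells, the level of some genes went with the number of Il1rl1 UMIs. Dgat2 was at 86.0 CPM (66.7 to 109) in the 256 cells with 1 Il1rl1 UMI, at 107 (77.5 to 145) in the 127 with 2, and at 189 (151 to 233) in the 121 with 3 or more. Il1rn was at 163, 210 and 341, and Il2ra at 632, 660 and 925. Klrg1, with a ratio of 1.15 over all the cells, was at 272, 340 and 422, and in the class with 3 or more its ratio over the matched cells of that class was 1.70 (1.34 to 2.16). The intervals of the lowest and highest class did not overlap for these genes. They overlapped for Nfkb2, at 79.6, 92.1 and 130, which had a ratio of 1.55 (1.02 to 2.40) in the class with 3 or more. Areg had no such order, at 1564, 1858 and 1277, nor had Klf2, at 1025, 1095 and 908. Among the lower genes, Ccl5 was at 492, 320 and 305 and Nkg7 at 188, 161 and 98.9. Serpina3g was at 69.5, 74.2 and 19.8. The cells with 3 or more were deeper, with a median of 3735 UMIs beside 2716 and 2578, so cells of a like Il1rl1 level can fall in different classes. Cells with only 1 Il1rl1 UMI nevertheless stood on the same side as the rest for Dgat2, Il1rn, Il2ra, Areg, Ccl5 and Nkg7.

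**Figure D4:**
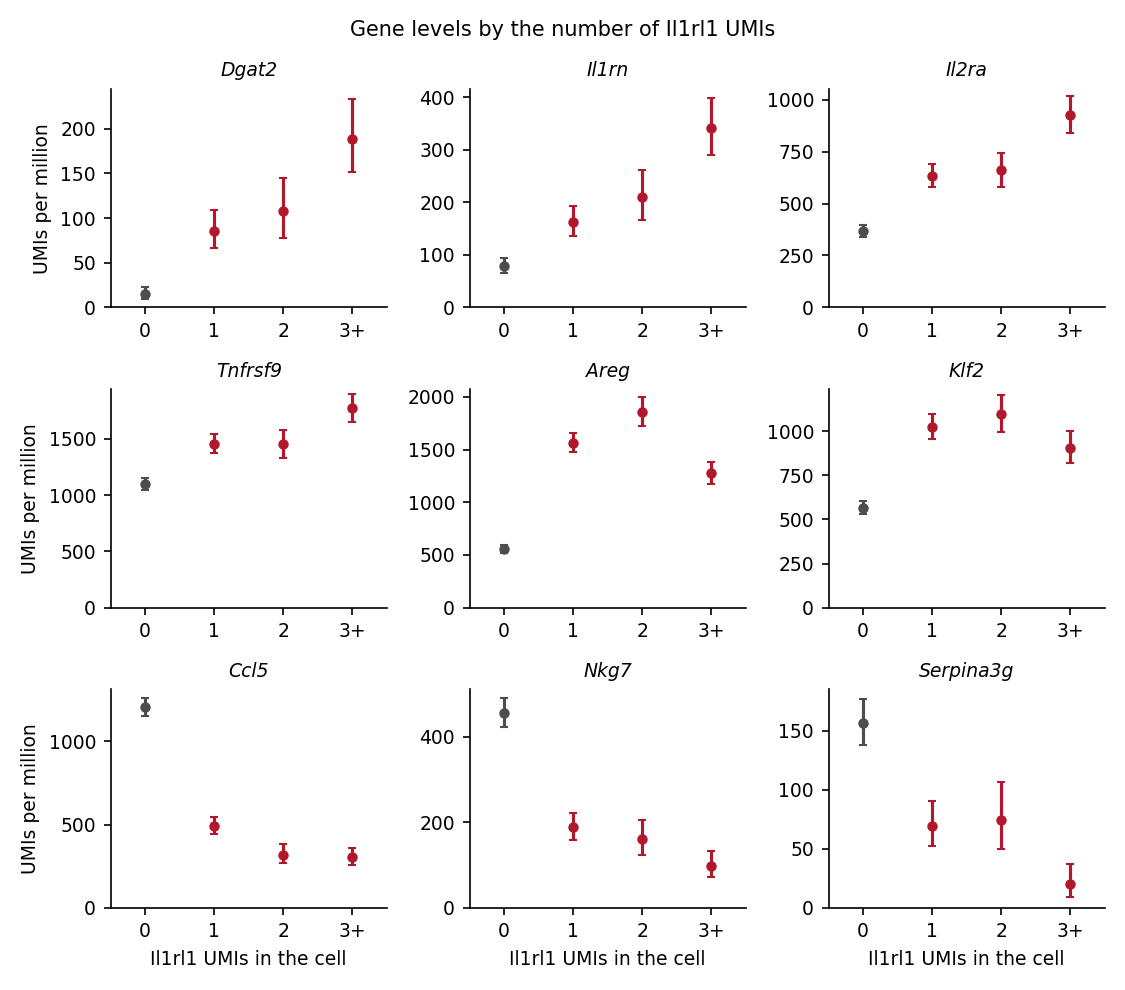
CPM of 9 genes in matched Treg cells without Il1rl1 (grey) and in Il1rl1+ Treg cells with 1, 2 and 3 or more Il1rl1 UMIs (red; 256, 127 and 121 cells), with exact 95% Poisson intervals on axes that start at 0. Dgat2, Il1rn and Il2ra are highest in the class with most Il1rl1, Areg in the class with 2, and Serpina3g is lowest in the class with most.

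Co-detection of the higher genes differed from pair to pair. In 430 Il1rl1+ cells thinned to 1500 UMIs, Dgat2 was found in 29.8% (17 of 57) of those with Il1rn and in 11.3% of the 373 without it. Gata3 was found in 33.5% of 230 cells with Il2ra and in 23.5% of 200 without. Areg was found in 91 of the 230 cells with Il2ra (39.6%) and in 60 of the 200 without. It was found in 39.0% of 59 cells with Dgat2 and 34.5% of 371 without, and in 37.9% of 124 cells with Gata3 and 34.0% of 306 without. These shares describe co-detection in sparse counts of 1 library, with every cell at the same depth after thinning.

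The same contrast was drawn for CD4+ conventional T cells, of which 104 had an Il1rl1 UMI. Areg had 343 UMIs in them and 34 in 104 depth-matched cells, a ratio of 10.1 (7.08 to 14.8), and Gata3 had 83 and 29 (2.86, 1.86 to 4.53). Dgat2 had 20 and 2 (10.0, 2.43 to 88.3) and Il2ra 132 and 41 (3.22, 2.25 to 4.69). Il13 had 129 UMIs and none, Il1rn 28 and 25, and Klf2 273 and 268. Thus Areg and Gata3 went with Il1rl1 in both classes as called here. Il1rn, however, had a ratio of 2.84 in Treg cells and of 1.12 (0.630 to 2.0) in conventional cells. The difference between the classes was not tested. Conventional cells were called in part by a lack of Foxp3 UMIs, and Foxp3 was sparsely counted. After thinning, Foxp3 was still found in 70.4% of 2155 Treg cells. Whether some of the 104 cells were Treg cells without a captured Foxp3 UMI was not tested. The spread of the Areg and Il13 UMIs over the 104 cells was not examined.

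The hashtags tied few cells to a tumor. Of 2609 Treg cells, 300 had tag UMIs of 1 kind of tumor only, and 88.7% of the cells with a tag had a single tag UMI. Il1rl1 was found in 12 of 245 Treg cells with B16 tags (4.90%, 2.56 to 8.40) and in 13 of 55 with B16–IL-33 tags (23.6%, 13.2 to 37.0). The difference was 18.7 percentage points (7.76 to 32.3). The median depth of these cells was 3401 UMIs for B16 tags and 2467 for B16–IL-33 tags, and after thinning to 1500 UMIs the difference was 10.7 points (2.10 to 24). Both B16 tags gave 5.0% (4 of 80 and 8 of 160), while the B16–IL-33 tags gave 16.7% (3 of 18) and 27.0% (10 of 37). The intervals of the tags numbered 1 overlapped. Treg cells without a tag stood at 20.8% (479 of 2307), near the B16–IL-33 value.

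Over all tagged Treg cells, several genes of the Il1rl1+ group were also higher in B16–IL-33 than in B16 tumors. Areg was at 1414 and 332 CPM (ratio 4.26, 3.60 to 5.04), Dgat2 at 88.3 and 8.50, and Il2ra at 607 and 224. Gata3 was at 166 and 120, with an interval that held 1 (0.890 to 2.08). Nkg7 was lower in B16–IL-33 tumors, at 254 and 749 CPM (0.339, 0.246 to 0.457), whereas Lag3 was at 480 and 351 (1.37, 1.07 to 1.74). The kinds of tumor thus differed in genes that also differed with Il1rl1. The matched cells held 62 cells with B16 tags and 6 with B16–IL-33 tags where the Il1rl1+ cells held 12 and 13. Kind of tumor and Il1rl1 can be told apart only within the few tagged cells. Against all Il1rl1- Treg cells with B16–IL-33 tags (42), the 13 Il1rl1+ cells had ratios of 6.78 for Dgat2 (2.23 to 22.7), 3.56 for Gata3 (1.61 to 7.78), 2.42 for Il2ra (1.60 to 3.61), 2.59 for Sdc4 (1.42 to 4.61) and 0.483 for Ccl5 (0.303 to 0.740). Of the 41 Il2ra UMIs in these cells, 24 lay in 1 cell. Against the 13 depth-matched cells of the tag the intervals of Dgat2 (0.747 to 11.3) and Sdc4 (0.912 to 4.54) held 1. Other genes lay on the other side of 1 from their ratios over all cells, each with an interval that held 1. These were Il1rn at 0.598 (0.183 to 1.54), Klf2 at 0.691 (0.394 to 1.15), Batf at 0.723 (0.294 to 1.55), Nkg7 at 1.44 (0.677 to 2.84) and Lag3 at 1.21 (0.698 to 2.03). Areg was among them: it was at 1148 CPM in the 13 Il1rl1+ cells and at 1479 in the 42 others (0.776, 0.541 to 1.09). Against the 13 depth-matched cells of the tag the Areg ratio was 0.413 (0.280 to 0.598), where 62 of the 103 UMIs of the matched cells lay in 1 cell. In B16 tags the 12 Il1rl1+ cells had an Areg ratio of 0.756 (0.398 to 1.31) against 233 others and of 2.59 (0.868 to 9.30) against 12 depth-matched cells. No interval for Areg within a kind of tumor lay above 1 at this depth. Against the 233 others in B16 tags, Nkg7 had a ratio of 1.41 (1.05 to 1.87), the opposite side from its ratio of 0.344 over all cells, with 32 of its 53 UMIs in 1 cell. Against the 12 depth-matched cells it was 0.801 (0.548 to 1.17). The ratios of Gata3 (0.975), Sdc4 (0.862), Batf (0.806), Lag3 (0.828), Ccl5 (0.815), Il2ra (1.24), Klf2 (1.5), Dgat2 (2.48) and Klrg1 (0.659) against the 233 others had intervals that held 1, and Il1rn had no UMI in the 12 cells. No interval for Nkg7 within a kind of tumor lay below 1.

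T cell receptor contigs gave a measure that the choice of cells had not used. A clonotype was called for 288 of the 504 Il1rl1+ cells and for 346 of the matched cells, beside 853 and 1054 UMIs of Trac, the alpha chain constant gene. The clonotypes of the Il1rl1+ cells were all different: 288 cells held 288 clonotypes, and none was found in 2 Il1rl1+ cells. An expanded clonotype, here 1 with at least 2 Treg cells of the library, was carried by 7 Il1rl1+ cells (2.43%, 0.983 to 4.94) and by 26 matched cells (7.51%, 4.97 to 10.8). The difference was -5.08 percentage points (-8.69 to -1.51). Over all Il1rl1- Treg cells the share was 6.42% (91 of 1417). The interval of the difference held 0 when Treg cells needed 2 Foxp3 UMIs (-1.76, -5.02 to 1.57) and when clones were defined by the beta chain (-3.97, -9.22 to 1.45). The groups were not matched for kind of tumor: 12 Il1rl1+ and 62 matched cells had B16 tags, 13 and 6 B16–IL-33 tags. The study reported more expanded cells among IL1RL1+ Treg cells in B16–IL-33 than in B16 tumors, and the reverse for effector Treg cells. The part of tumor in the clone difference was not tested.

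Of 46 expanded clonotypes, 39 held Il1rl1- cells only and 7 held both kinds, each as a pair of 1 Il1rl1+ and 1 Il1rl1- cell. The CDR3 of the beta chain, the stretch that contacts antigen, is shown for the 5 shared clonotypes with a single beta chain and 1 assigned V gene, since in these the same receptor occurred on both sides of the Il1rl1 threshold. The sequences were read from the deposited contigs.
TRBV1 with TRBJ1-6: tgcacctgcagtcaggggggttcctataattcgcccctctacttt
TRBV16 with TRBJ2-7: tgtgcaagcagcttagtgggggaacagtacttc
TRBV3 with TRBJ2-1: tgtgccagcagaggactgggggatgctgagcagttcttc
TRBV31 with TRBJ1-6: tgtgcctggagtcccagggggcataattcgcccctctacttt
TRBV5 with TRBJ2-2: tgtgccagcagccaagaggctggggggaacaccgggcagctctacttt
All 5 used different V genes. Of the other 2 shared clonotypes, 1 had 2 beta chains and 1 had an alpha chain only. Because 256 of the Il1rl1+ cells rest on 1 UMI, a cell without an Il1rl1 UMI may still have carried the transcript. The use of beta chain V genes was broadly alike: TRBV3 was used by 5.33% of 244 Il1rl1+ cells with a beta chain and by 8.88% of 304 matched cells, and TRBV1 by 12.7% and 11.2%.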

How the data were processed

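T cells of 1 pool were profiled as 1 gene expression, 1 hashtag and 1 TCR library. The authors deposited the gene expression and hashtag values as raw counts of UMIs per feature and barcode, and the TCR values as counts of UMIs per assembled contig, all without normalization. Cell Ranger made the gene expression counts on a combined human and mouse (mm10) reference; its version is 3.1.0 in the matrix header and 6.1.1 in the submitters' processing notes. Cell filters followed the study's methods. Doublets were treated only by leaving out, as an alternative, cells with at least 2 productive beta chains.

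UMIs were summed over cells, and each Il1rl1+ Treg cell was paired without replacement with the Il1rl1- Treg cell nearest in log10 of UMIs other than Il1rl1. Ratios have exact conditional binomial intervals, levels exact Poisson intervals, shares exact (Clopper-Pearson) intervals, and differences of shares square-and-add intervals, all at 95%. A count of 0 allows up to 3 counts. Genes with at least 100 UMIs over both groups were ranked, and genes of lists needed 30. The genes named were the 12 highest and 12 lowest ratios (without Il1rl1, Foxp3, Cd8a, Cd8b1 and TCR segments), the 2 highest and 2 lowest of each list, and genes the study names for these cells; a few of them are not reported here. Other genes of the lists, T cell and cell type markers, receptor chains and neighbours of Il1rl1 were named after their values were seen. The cells and lists were chosen with earlier results of these data known. Areg and Dgat2, among others, stand in more than 1 part of this rule. Shares of cells with a UMI were thinned to 1500 UMIs, leaving out shallower cells (430 of 504 kept in each group), only where thinning is stated. The shares given for single genes in Il1rl1+ and matched cells were not thinned and cover all 504 cells of each group. The tumor of a cell was read from its tag UMIs where there was any and where none came from the other kind of tumor. The ratio was tested on simulated data. Python 3.11.15, NumPy 2.4.6 and SciPy 1.17.1 were used. Gene coordinates came from GENCODE vM21 (GRCm38). Intervals assume independent UMIs, and UMIs of bursty genes such as Areg are not.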

Additional observations from a re-analysis of the deposited data

Results flagged for a closer look

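In the hashtag library, 99.99% of the UMIs matched no tag, which left 1730 tag UMIs for all barcodes. The UMIs that matched no tag were not used by any comparison.

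The gene expression library held 8562 UMIs on human genes of the combined reference, beside 43420305 on mouse genes. They were left out of all totals.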

How the results depend on the processing

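The share of Treg cells with Il1rl1 was 19.3% as reported, 21.8% with at least 2 Foxp3 UMIs and 13.5% after thinning to 1500 UMIs, an alternative chosen after seeing the data. The number of genes at least 1.5-fold higher (135) moved to 519 and 31 with minima of 30 and 300 UMIs. That of lower genes (92) moved to 403 and 22 with these minima, to 58 with at least 2 Foxp3 UMIs, to 275 without matching and to 181 with thinning of all cells. These settings change how many genes reach the minimum or how many cells are summed, and beyond that the cause was not tested. Of the 135 and 92 genes, 71 and 42 were shared with the 119 and 72 found without cells holding a UMI of another cell type. The clone difference was -1.45 points with expanded clonotypes of at least 3 cells (interval -3.34 to 0.158). The tag difference was 50.0 points with at least 2 tag UMIs (interval -0.0965 to 98.7).

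Ratios that turned to the other side of 1 are given for named genes that were at least 1.5-fold higher or lower as reported. Fcer1g was at 1.09 without an upper limit on detected genes, and Ccl6 at 1.83 without cells of other markers. With 2 Foxp3 UMIs they were Ccl12 at 2.0, Igfbp4 at 1.33, S100a8 at 1.00 and Alox5ap at 1.00. With at least 2 Il1rl1 UMIs they were Ccl6 at 1.56, Igfbp4 at 1.10, Id3 at 0.875 and Alox5ap at 1.00, and after thinning Dapl1 at 1.05, Igfbp4 at 1.06, Id3 at 0.683 and Mt3 at 1.04. Id3 was at 0.966 without its highest cell, an alternative added after seeing the data. Some named genes short of 1.5-fold also crossed 1 over the alternatives run on all Treg cells. Examples were Prf1 (0.439 to 1.12), Adam17 (0.744 to 1.09) and Nfkb2 (0.881 to 1.22). The ratio of Areg ran from 2.36 to 3.63 and that of Dgat2 from 5.11 to 11.3 over the alternatives run on all Treg cells. No paired analysis was possible because there is 1 library of each kind and no test between samples. The tag difference was 10.7 points after thinning to 1500 UMIs (interval 2.10 to 24). The tag results rest on few cells, since 12 and 13 Il1rl1+ cells had a tag of B16 and B16–IL-33 tumors.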
